A study of Rattus norvegicus with 4 samples.

Results

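The genes described here encode the subunits of voltage-gated calcium channels and voltage-gated sodium channels. They were taken as every listed symbol that starts with Cacna, Cacnb or Cacng, or with Scn followed by a digit, which gave 40 of the 30560 genes in the count tables. Of these, 26 belong to the calcium channel families (10 Cacna1, 4 Cacna2d, 4 Cacnb and 8 Cacng genes) and 14 to the sodium channel families (10 alpha and 4 beta genes). Members were chosen by name and not by any measured value, and no member served as a marker of a cell type.

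The data are UMI counts (counts of distinct captured transcripts) in single nuclei of nucleus accumbens from Sprague-Dawley rats aged 90 to 120 days. Each of 4 libraries pooled the tissue of 4 rats, and the groups were saline (1 female and 1 male pool) and cocaine (1 female and 1 male pool). Cocaine was given at 20 mg/kg into the peritoneum on each of 7 days, saline rats received an equal volume of vehicle, and all rats were placed in an open field after injection. Tissue was collected 1 hour after the seventh injection, with a 2 mm punch over the core, and nuclei were isolated by sorting. The 2 libraries of a group differ in sex, and differences between rats within a pool were not measured. The p-values for cocaine rest on the spread between pools, and those between types on a spread shared over the pools of all tested types.

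Calcium channel pores are built by one Cacna1 gene product. In the high-voltage-activated channels a Cacna2d and a Cacnb subunit set how much channel reaches the membrane and how it gates. Most Cacng genes expressed in brain encode TARPs, which escort and modulate AMPA-type glutamate receptors rather than calcium channels. Sodium channel pores come from the Scn alpha genes and start the action potential, and the Scn beta genes encode small membrane proteins that tune gating and anchor the channel. In spiny projection neurons (MSN) of the striatum these channels shape the step between a resting and a firing state.

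The libraries held 31484217 to 40737786 UMIs, and 24843 of 26228 barcodes were kept after filters and removal of 1381 likely doublets. Between 10 and 18 barcodes were shared by any pair of libraries. Nuclei were gated to a type by marker genes, and 81.6% fell into 13 types. These are D1-MSN (3517 nuclei), D2-MSN (3216), a Grm8 MSN class marked by Grm8, Chst9, Casz1, Otof and Col11a1 (1837), Pvalb/Pthlh interneurons (294), Sst interneurons (324), other GABAergic neurons (422), glutamatergic neurons (502), astrocytes (1648), oligodendrocytes (6409), oligodendrocyte precursors (1069), microglia (796), cholinergic neurons (119) and vascular cells (126). Pvalb itself is not among the listed symbols, so that class rests on its other markers. At most 5.23% of a type's nuclei lay within 0.1 score units of 1 of 2 required leads. These are the lead among neurons, glial types and vascular cells, and the lead between D1-MSN and D2-MSN. Closeness to the other limits of the gate, which set the remaining neuronal types, was not counted. Of a type's nuclei, 68.9% to 99.6% sat in clusters of the same name. D2-MSN markers had a median of 0 UMIs per 10000 in D1-MSN nuclei, and D1-MSN markers a median of 0 in D2-MSN nuclei. The same lists set the gate, so these medians are not an independent check of it. The other GABAergic list had a median of 84.8 per 10000 in oligodendrocyte precursors, 79.4 in Pvalb/Pthlh interneurons and 31.5 in Grm8 MSN nuclei, against 23.0 in the class of that name. Oligodendrocyte nuclei held a median of 19.5 UMIs per 10000 of the general neuron list and astrocyte nuclei a median of 0. Median UMIs per nucleus ran from 1345 in microglia to 9676 in glutamatergic nuclei over the 11 types tested, and the saline female library was the deepest within D1-MSN nuclei (10371.5 against 7142 to 8170.5). Levels below are CPM, a gene's UMIs over all UMIs of that type and library on the usual CPM scale, given where a single value is shown as the mean ± SD over the 4 libraries of both treatments. Levels are compared for one gene across types and not between genes, since lengths of the genes were not used here. CPM use plain UMI totals, while edgeR fold changes also carry a scaling factor per type and library (TMM). The fold changes can therefore differ from ratios of CPM. In sums of this kind a lower level in each nucleus and fewer nuclei with the gene cannot be told apart.

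Of the 40 members, 32 reached 20 CPM in at least 1 of the 11 types tested and the same 32 passed the filter on low counts in the comparison of types. Within D1-MSN and D2-MSN nuclei the 32 tested for cocaine held Cacna2d4 in place of Scn7a. The 8 members below 20 CPM were Cacna1f, Cacna1s, Cacna2d4, Cacng1, Cacng6, Scn4a, Scn10a and Scn11a, genes best known from retina, muscle, heart or sensory ganglia. Of these, 7 stayed below 5 CPM in every tested type, and Cacna2d4 reached 6.17 CPM in Sst interneurons. Grm8 MSN nuclei held 30 members at 20 CPM or more, D1-MSN 27, D2-MSN 28, astrocytes 12, oligodendrocyte precursors 18 and oligodendrocytes 8.

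**Figure D1:**
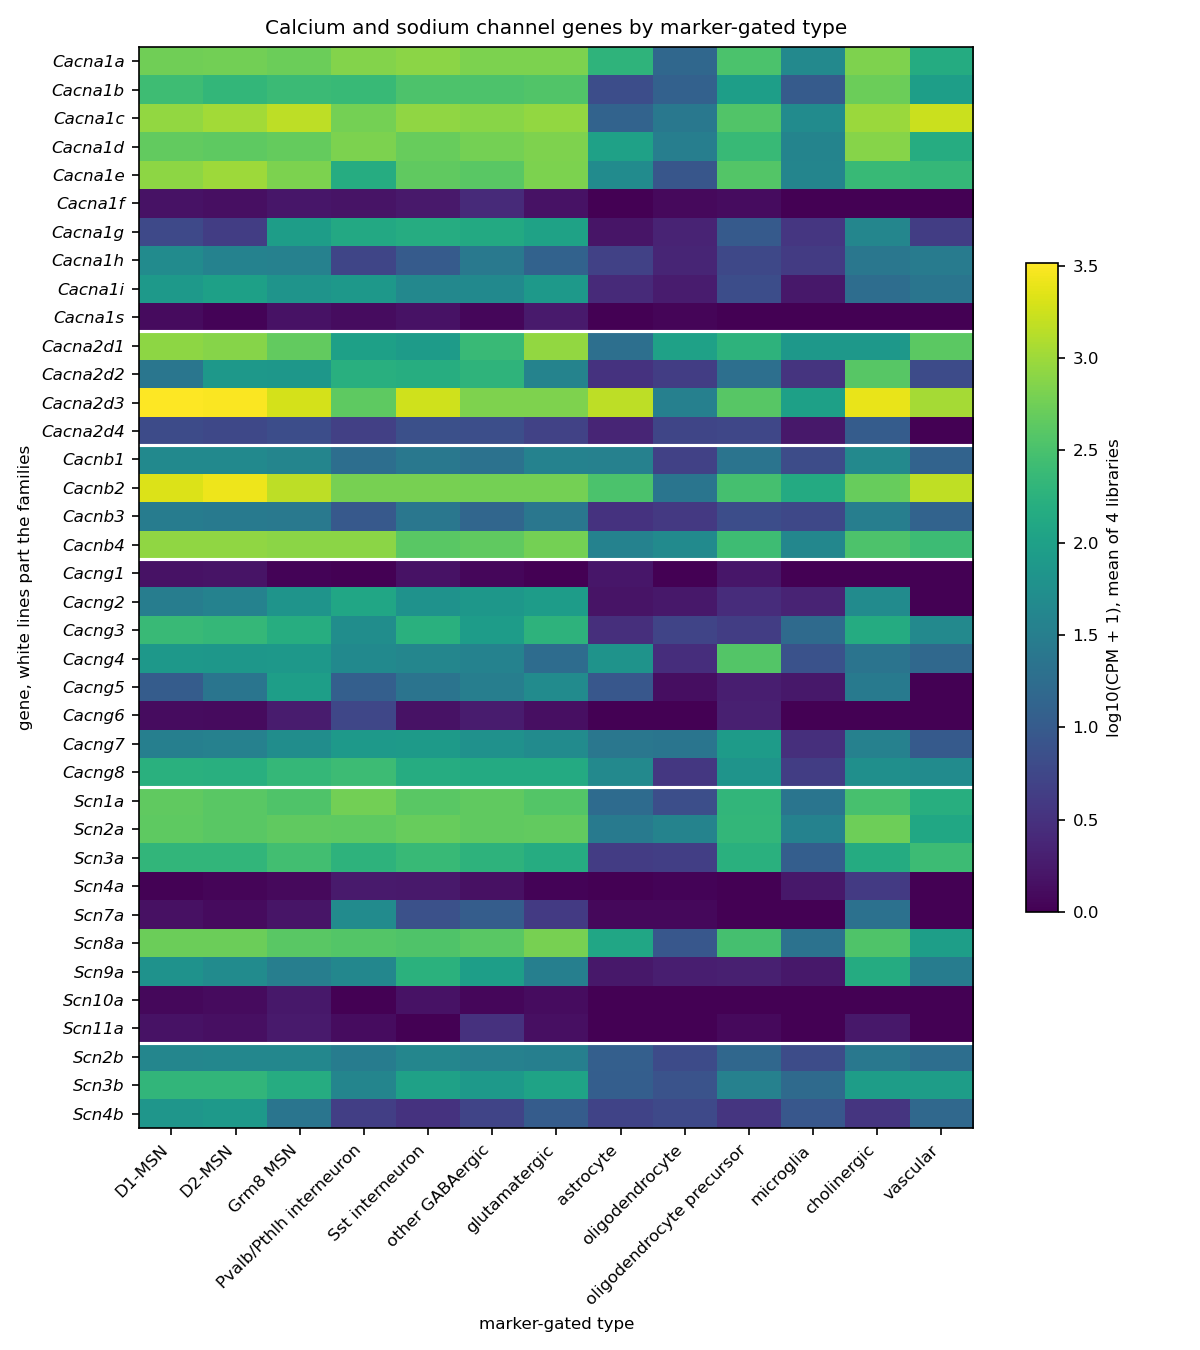
Level of 38 of the 40 genes (rows, white lines part the families) in the 13 marker-gated types (columns), as log10(CPM + 1) of the mean over 4 libraries. Neuronal types are bright for most pore genes, Cacng4 is brightest in oligodendrocyte precursors at 373.8 CPM, and 8 genes stay dark in every tested type.

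Among the calcium channel pore genes, the T-type channel gene Cacna1g (ENSRNOG00000060528) divided D1-MSN and D2-MSN nuclei from every other neuronal type. T-type channels open at voltages close to rest and support burst firing. In D1-MSN nuclei Cacna1g stood at 5.14, 5.76, 5.03 and 3.89 CPM in the saline female, saline male, cocaine female and cocaine male libraries. In D2-MSN nuclei it stood at 4.61, 2.62, 2.63 and 3.45 CPM in the same order. Both sets lie below every library of the other neuronal types. Grm8 MSN nuclei held 124, 74.4, 85.0 and 76.7 CPM, and Sst interneurons 123, 143, 154 and 176 CPM. Other GABAergic nuclei reached 135 ± 27.8 CPM, Pvalb/Pthlh interneurons 131 ± 35.0 CPM and glutamatergic nuclei 104 ± 23.1 CPM (SD, n = 4), and these neighbours in the order overlapped. Astrocytes, oligodendrocytes and microglia held 0.561 to 2.62 CPM, close to the level in D1-MSN and D2-MSN nuclei. Against the mean of D1-MSN and D2-MSN nuclei, edgeR gave a log2 fold change of 4.31 ± 0.13 (SE) in Grm8 MSN nuclei (adjusted p = 5.26e-31) and 4.83 ± 0.18 in Sst interneurons (adjusted p = 6.53e-27), higher in 4 of 4 libraries each.

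The other T-type genes ran differently. Cacna1h was highest in D1-MSN nuclei, with 50.1, 44.7, 47.6 and 50.2 CPM, and lower in D2-MSN nuclei, with 40.8, 29.8, 34.9 and 36.0 CPM. The 2 types did not overlap, and the edgeR log2 fold change of D2-MSN against D1-MSN nuclei was -0.44 ± 0.11 (SE, adjusted p = 0.00368). Pvalb/Pthlh interneurons held 4.44 ± 3.66 CPM of Cacna1h from 8 UMIs in all. Cacna1i was instead higher in D2-MSN nuclei, at 102, 99.9, 92.4 and 96.5 CPM against 81.5, 74.4, 78.3 and 81.6 CPM in D1-MSN nuclei. Its log2 fold change was 0.32 ± 0.08 (adjusted p = 0.00654, edgeR).

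High-voltage-activated pore genes were present in all neuronal types, with shifted shares. Shares here are of the raw UMIs of the whole Cacna1 family and are not corrected for gene length. Cacna1c, an L-type channel gene, made up 28.1% ± 0.33 of the family in D1-MSN, 30.9% ± 1.06 in D2-MSN and 40.8% ± 1.67 in Grm8 MSN nuclei (SD, n = 4). Its level in Grm8 MSN nuclei, 1443 ± 93.0 CPM, lay above every D2-MSN library (1065 ± 51.2 CPM). In the 126 vascular nuclei, which were too few to test, Cacna1c stood at 1716 ± 182 CPM and 72.7% of the family. That class rests on 6 of its 8 markers. Summed over libraries, its nuclei held 4916 CPM of the D1-MSN list, 5306 of the general neuron list and 4770 of the vascular list. The medians were 58.1, 0 and 59.9 UMIs per 10000 in the same order. D1-MSN nuclei themselves held 948 CPM of the D1-MSN list, with a median of 8.19 UMIs per 10000. The source of that list's UMIs in vascular nuclei was not tested. Cacna1e, the R-type channel gene, made up 26.6% ± 0.32 of the family in D1-MSN nuclei and 5.81% ± 0.83 in Pvalb/Pthlh interneurons. Its level there, 151 ± 27.4 CPM, was lower than in D1-MSN and D2-MSN nuclei by a log2 fold change of -2.85 ± 0.19 (adjusted p = 5.86e-18, edgeR). Cacna1b, the N-type channel gene of nerve terminals, was lower in D2-MSN (211 ± 26.3 CPM) than in D1-MSN nuclei (262 ± 15.8 CPM), with a log2 fold change of -0.30 ± 0.09 (adjusted p = 0.0171, edgeR). In glutamatergic nuclei Cacna1b was higher than in D1-MSN and D2-MSN nuclei by a log2 fold change of 0.50 ± 0.08 (adjusted p = 1.59e-06, edgeR). Cacna1a, the P/Q-type gene, held 52.7% ± 4.76 of the family's UMIs in astrocytes, at 193 ± 19.2 CPM, against 14.9% to 28.4% in the neuronal types tested.

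**Figure D2:**
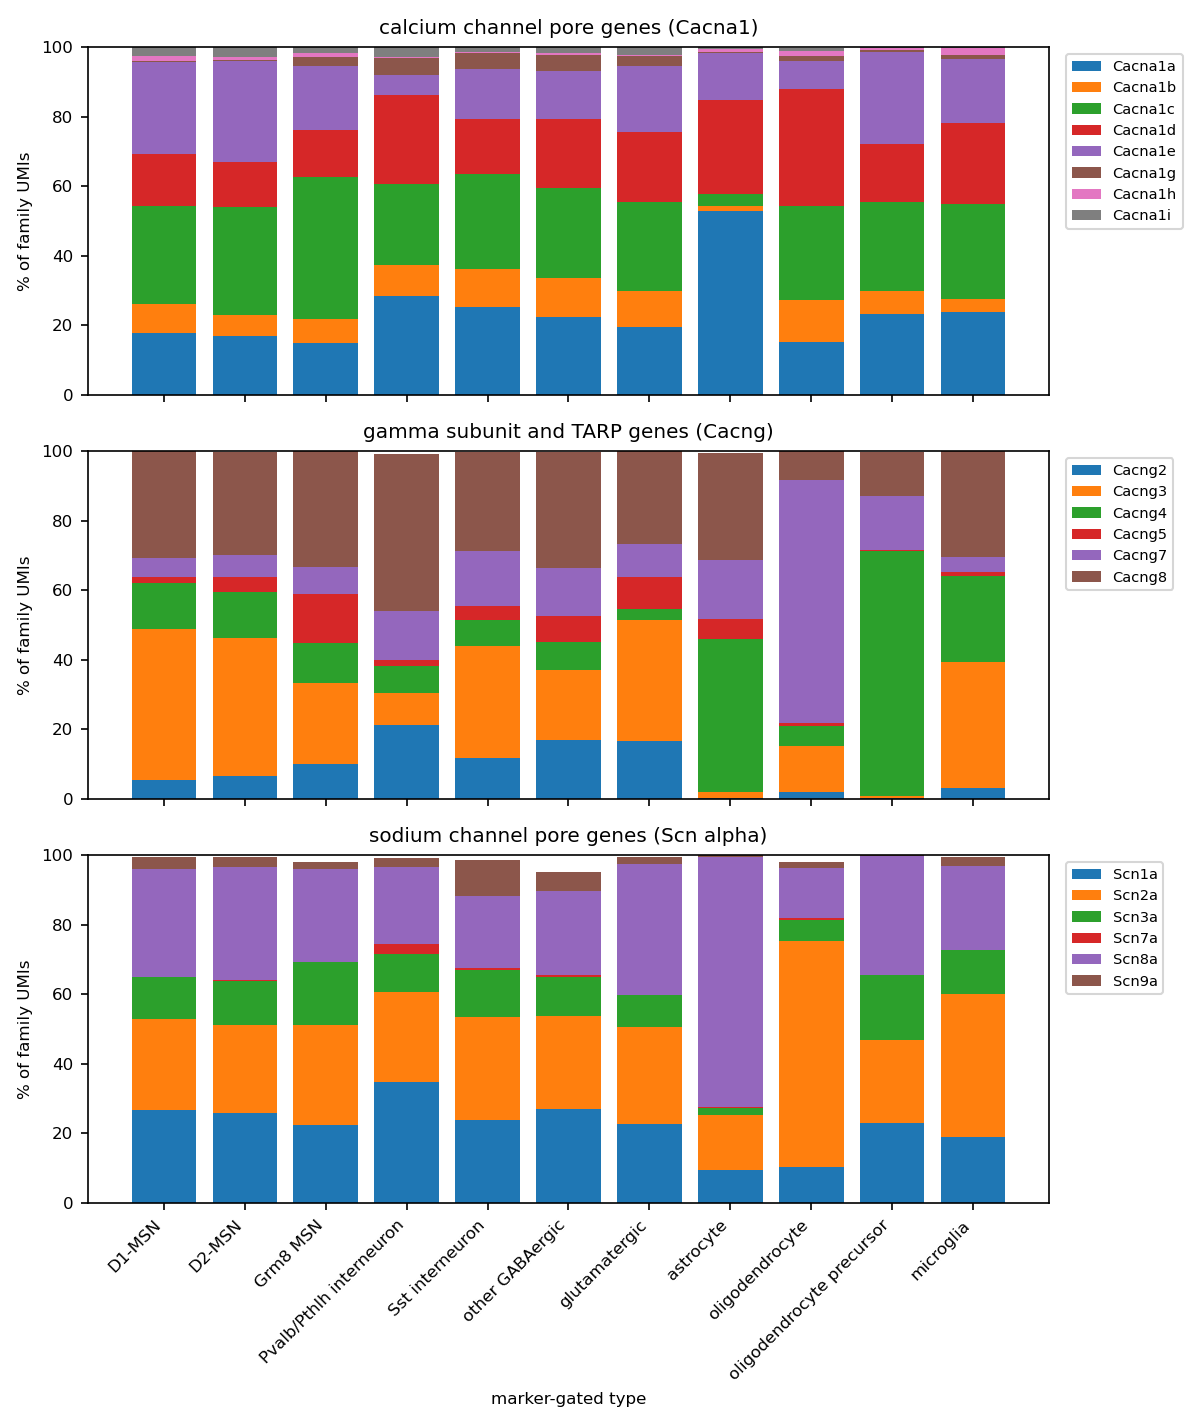
Share of each gene in the raw UMIs of its family (y axis, %, mean of 4 libraries) in the 11 tested types, for the Cacna1, Cacng and sodium channel alpha families. Genes under 1% in all types shown and any gene not reported here are left out, so bars can end below 100. Cacna1a widens to 52.7% in astrocytes, Cacng4 to 70.3% in oligodendrocyte precursors and Scn8a to 72.0% in astrocytes.

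The Cacna2d genes, whose products carry channels to the membrane, also differed between the neuronal types. Cacna2d2 stood at 29.5, 20.9, 20.7 and 22.3 CPM in D1-MSN nuclei and at 81.7, 73.7, 66.4 and 73.7 CPM in D2-MSN nuclei. The groups did not overlap, and the log2 fold change was 1.68 ± 0.11 (adjusted p = 5.19e-17, edgeR). Pvalb/Pthlh interneurons held 165 ± 11.4 CPM, Sst interneurons 153 ± 39.1 CPM and other GABAergic nuclei 193 ± 36.7 CPM, which overlapped one another. The 119 cholinergic nuclei, which were not tested, held 397 ± 108 CPM. Cacna2d3 was at 3274 ± 114 CPM in D1-MSN and 3155 ± 130 CPM in D2-MSN nuclei and at 439.5 ± 117 CPM in Pvalb/Pthlh interneurons, a log2 fold change of -3.13 ± 0.20 (adjusted p = 1.11e-18, edgeR). Cacna2d1 was low in both interneuron classes, with 98.1 ± 21.2 CPM in Pvalb/Pthlh and 82.9 ± 23.7 CPM in Sst interneurons, while D1-MSN nuclei held 837 ± 31.3 CPM and glutamatergic nuclei 875 ± 196 CPM. Its log2 fold changes against D1-MSN and D2-MSN nuclei were -3.23 ± 0.22 and -3.54 ± 0.23 in the 2 interneuron classes (adjusted p = 2.15e-17 and 2.22e-18, edgeR).

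Of the intracellular Cacnb subunits, Cacnb2 was highest in D2-MSN nuclei at 2671 ± 53.0 CPM, above all D1-MSN libraries (2135 ± 122 CPM). The difference was not called, with a log2 fold change of 0.33 ± 0.16 (adjusted p = 0.323, edgeR). That fit takes its spread from all 11 types tested and not from D1-MSN and D2-MSN nuclei alone. Against D1-MSN and D2-MSN nuclei, Cacnb2 was lower by a log2 fold change of -2.26 ± 0.16 in Sst interneurons and -2.16 ± 0.16 in glutamatergic nuclei (adjusted p = 2.59e-16 and 3.55e-16, edgeR). Cacnb4 took 27.8% ± 1.46 of the family's UMIs in D1-MSN nuclei and 55.0% ± 1.86 in Pvalb/Pthlh interneurons. Its own level was 791 ± 98.9 CPM in these interneurons, 851 ± 21.3 CPM in D1-MSN and 850 ± 55.9 CPM in D2-MSN nuclei. The scaled log2 fold change was -0.37 ± 0.13 (adjusted p = 0.0216, edgeR). With plain library sizes the median of all genes moved up by 0.25 in this contrast, so much of that value depends on scaling. Cacnb2 was lower in those interneurons by -2.20 ± 0.17 on the log2 scale (adjusted p = 5.05e-16, edgeR). The level of Cacnb4 in Sst interneurons, 407 ± 81.4 CPM, was lower than in D1-MSN and D2-MSN nuclei by a log2 fold change of -1.40 ± 0.14 (adjusted p = 1.62e-11, edgeR).

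Within the Cacng family, Cacng5, a type II TARP gene, was the member most tied to the Grm8 MSN class. It stood at 103, 80.3, 94.1 and 96.2 CPM in Grm8 MSN nuclei, above all libraries of every other tested type. Glutamatergic nuclei followed at 42.7, 49.5, 52.4 and 48.9 CPM. D2-MSN nuclei held 22.6, 24.0, 22.9 and 18.3 CPM and D1-MSN nuclei 9.13, 11.4, 9.44 and 8.73 CPM, again without overlap. The log2 fold change was 2.55 ± 0.10 in Grm8 MSN nuclei against D1-MSN and D2-MSN nuclei (adjusted p = 4.10e-27, edgeR) and 1.19 ± 0.13 in D2-MSN against D1-MSN nuclei (adjusted p = 1.48e-09, edgeR). Cacng2, which encodes the TARP stargazin, was highest in Pvalb/Pthlh interneurons at 93.5, 127, 146 and 115 CPM against 28.0, 28.9, 31.0 and 32.4 CPM in D1-MSN nuclei. The next type, glutamatergic nuclei at 86.1 ± 12.9 CPM, overlapped with it. The log2 fold change of Cacng2 in Pvalb/Pthlh interneurons against D1-MSN and D2-MSN nuclei was 1.58 ± 0.14 (adjusted p = 3.22e-13, edgeR). Cacng3 made up 43.5% ± 0.84 of the family in D1-MSN nuclei and 9.17% ± 3.29 in Pvalb/Pthlh interneurons. Cacng7 stood at 81.9 ± 12.3 CPM in Sst interneurons, a log2 fold change of 0.97 ± 0.13 over D1-MSN and D2-MSN nuclei (adjusted p = 2.46e-08, edgeR).

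**Figure D3:**
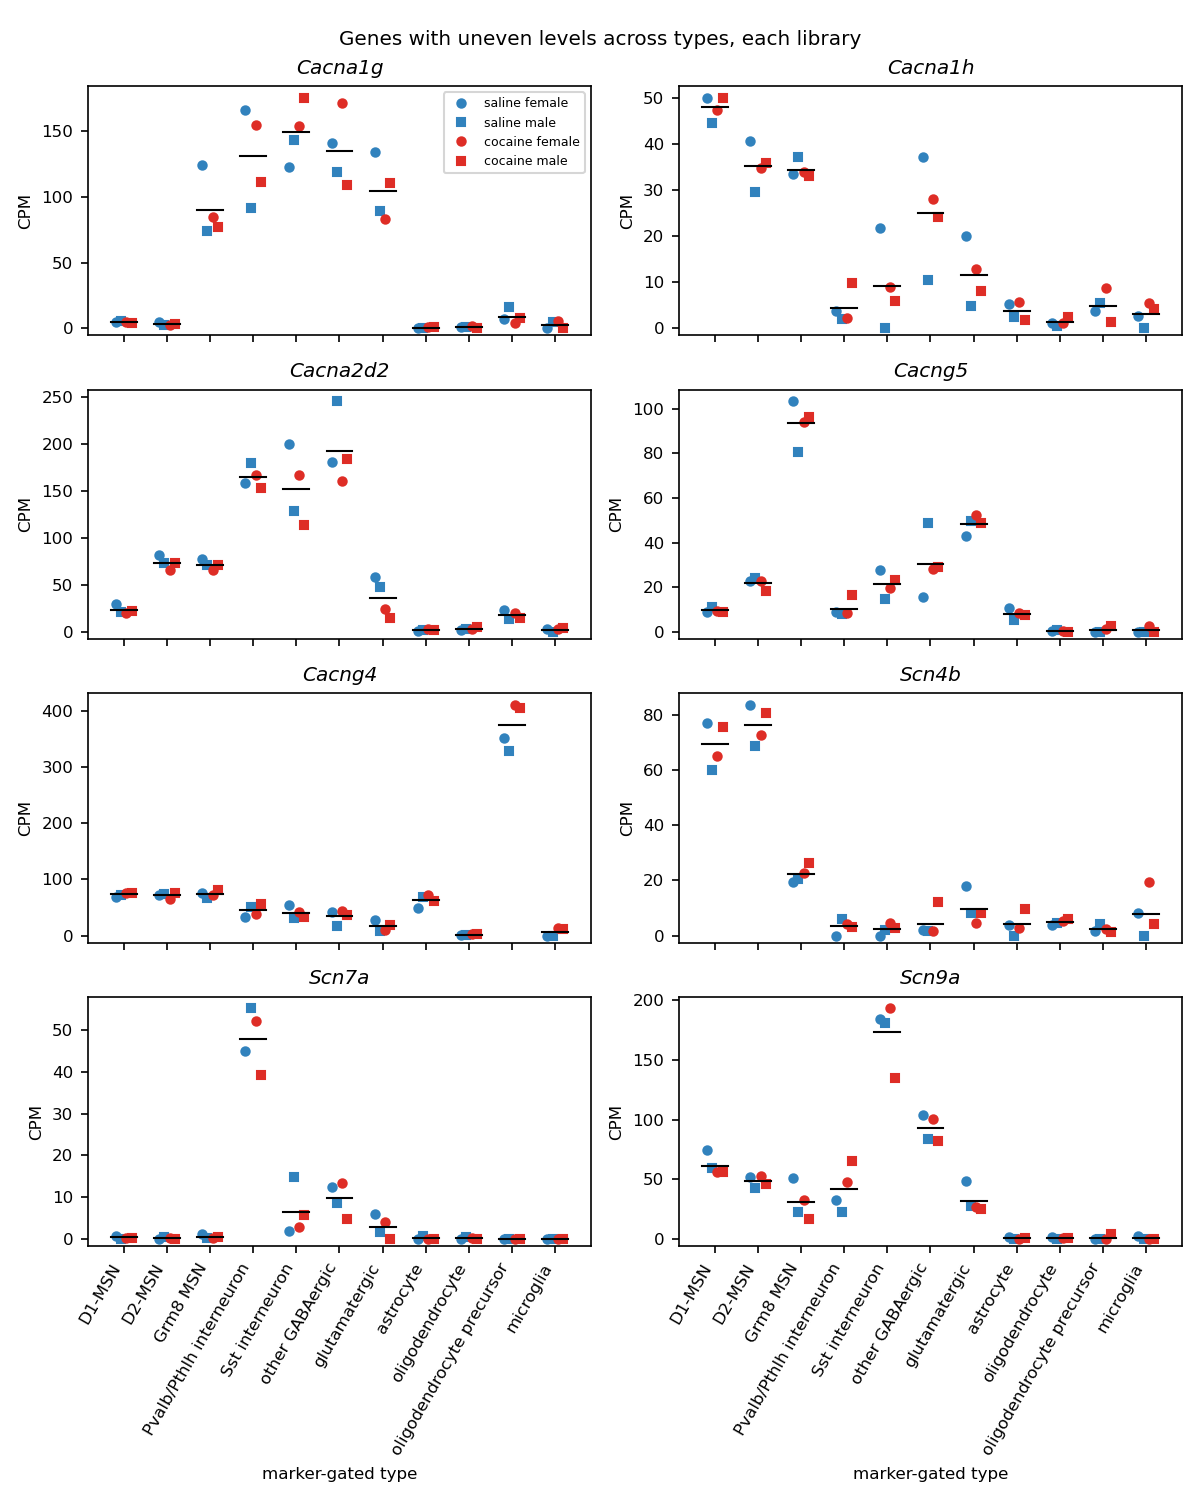
CPM (y axis, linear) of 8 genes in the 11 tested types (x axis), with 1 point per library (circles female, squares male, blue saline, red cocaine) and a black bar at the mean of 4 libraries. Cacna1g is at or below 5.76 CPM in all D1-MSN and D2-MSN libraries, Scn7a stands out in Pvalb/Pthlh interneurons and Scn4b in D1-MSN and D2-MSN nuclei.

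The main sodium channel pore genes of brain, Scn1a, Scn2a and Scn8a, were present in all neuronal types. Scn1a took 34.7% ± 2.20 of the alpha family's UMIs in Pvalb/Pthlh interneurons against 26.8% ± 0.89 in D1-MSN nuclei, at 590.0 ± 58.5 and 453 ± 18.3 CPM, but its level was not called different there (log2 fold change 0.19, edgeR adjusted p = 0.130). Scn8a was highest in glutamatergic nuclei at 619 ± 29.0 CPM. Some alpha genes were uneven between the interneuron classes. Scn9a, a pore gene known from pain fibres, stood at 185, 181, 193 and 135 CPM in Sst interneurons and at 74.9, 59.6, 55.9 and 56.0 CPM in D1-MSN nuclei, a log2 fold change of 1.35 ± 0.14 against D1-MSN and D2-MSN nuclei (adjusted p = 6.76e-12, edgeR). Every Sst library lay above all libraries of the other tested types, while the cholinergic nuclei, which were not tested, held 145 ± 25.6 CPM. In Pvalb/Pthlh interneurons Scn9a was lower by -0.81 ± 0.21 on the log2 scale (adjusted p = 0.00152, edgeR). Scn7a, an atypical sodium channel gene, stood at 44.9, 55.1, 52.2 and 39.3 CPM in Pvalb/Pthlh interneurons from 99 UMIs in all, while D1-MSN nuclei gave 13 UMIs and D2-MSN nuclei 7. Its log2 fold change was 6.66 ± 0.34 (adjusted p = 2.17e-20, edgeR). Scn7a was also called higher in Sst interneurons (3.67 ± 0.65, adjusted p = 8.79e-06, edgeR) from 13 UMIs and in glutamatergic nuclei (2.93 ± 0.57, adjusted p = 3.00e-05, edgeR) from 17 UMIs, and cholinergic nuclei held 32 UMIs.

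The beta subunit gene Scn4b, whose product takes part in resurgent sodium current, was the reverse of Cacna1g across neurons. D1-MSN nuclei held 76.9, 60.1, 65.1 and 75.7 CPM and D2-MSN nuclei 83.6, 68.8, 72.6 and 80.6 CPM. Grm8 MSN nuclei held 19.3, 20.6, 22.6 and 26.3 CPM, below all of these. The other tested types ranged from 2.32 to 9.66 CPM in their means, with 5 UMIs in all in Sst and 6 in Pvalb/Pthlh interneurons. The log2 fold change against D1-MSN and D2-MSN nuclei was -1.85 ± 0.13 in Grm8 MSN nuclei (adjusted p = 3.11e-17, edgeR). It was -3.33 ± 0.21 in glutamatergic nuclei (adjusted p = 1.56e-18, edgeR) and -5.17 ± 0.39 in Sst interneurons (adjusted p = 6.90e-16, edgeR). With only 5 UMIs of Scn4b in Sst interneurons, the SE of 0.39 is likely too small.

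Several members lie next to each other in the RefSeq order of genes (assembly GRCr8). Scn2b and Scn4b have no protein-coding gene between them, and their levels ran apart. Scn2b stood at 39.9 ± 3.06 CPM in D1-MSN, 41.1 ± 3.98 CPM in Grm8 MSN and 40.4 ± 2.70 CPM in Sst nuclei. It was lower in Pvalb/Pthlh interneurons (29.3 ± 8.45 CPM, log2 fold change -0.79, adjusted p = 0.000476, edgeR) and in glutamatergic nuclei (32.2 ± 8.06 CPM, -0.46, adjusted p = 0.00259, edgeR), by less than Scn4b in the same types (-4.87 and -3.33). Its log2 fold change in Sst interneurons was -0.35 (adjusted p = 0.091, edgeR), where that of Scn4b was -5.17. Cacng4 and Cacng5 are also direct neighbours, and Cacng4 differed by only -0.10 on the log2 scale in Grm8 MSN nuclei (adjusted p = 0.459, edgeR), where Cacng5 was 2.55 higher. Scn1a, Scn9a and Scn7a form another row. In Sst interneurons the log2 fold change of Scn1a was -0.41 (adjusted p = 0.0018, edgeR), where Scn9a and Scn7a were both higher. With plain library sizes the median of all genes moved up by 0.32 in this contrast, so much of the Scn1a value depends on scaling. Scn1a in Sst interneurons was not among the named differences checked under the alternatives. RefSeq promoter windows (250 bases before to 50 after the start) were on hand for 27 of the 40 members. Shown first are those of Scn2b and Scn4b, the adjacent genes with unlike patterns, then those of Cacng5 and Cacna2d2, which parted D2-MSN from D1-MSN nuclei. Each reads 5′ to 3′ on the gene's strand, with CpG dinucleotides in capitals.
Scn2b: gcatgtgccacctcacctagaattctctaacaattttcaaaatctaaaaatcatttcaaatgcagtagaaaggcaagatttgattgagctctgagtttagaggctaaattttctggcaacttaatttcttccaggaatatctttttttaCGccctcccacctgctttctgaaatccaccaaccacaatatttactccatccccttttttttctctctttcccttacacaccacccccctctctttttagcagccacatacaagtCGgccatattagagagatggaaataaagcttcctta
Scn4b: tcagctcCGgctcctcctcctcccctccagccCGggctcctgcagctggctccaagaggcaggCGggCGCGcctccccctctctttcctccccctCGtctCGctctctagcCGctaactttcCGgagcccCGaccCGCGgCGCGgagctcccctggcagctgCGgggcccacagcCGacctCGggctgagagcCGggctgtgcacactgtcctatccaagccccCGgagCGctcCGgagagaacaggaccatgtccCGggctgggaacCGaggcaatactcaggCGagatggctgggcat
Cacng5: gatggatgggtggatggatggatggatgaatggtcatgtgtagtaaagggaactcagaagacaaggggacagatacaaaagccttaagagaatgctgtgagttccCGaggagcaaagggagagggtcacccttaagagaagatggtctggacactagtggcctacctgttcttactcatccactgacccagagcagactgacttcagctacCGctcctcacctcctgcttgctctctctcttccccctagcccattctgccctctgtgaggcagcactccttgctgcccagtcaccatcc
Cacna2d2: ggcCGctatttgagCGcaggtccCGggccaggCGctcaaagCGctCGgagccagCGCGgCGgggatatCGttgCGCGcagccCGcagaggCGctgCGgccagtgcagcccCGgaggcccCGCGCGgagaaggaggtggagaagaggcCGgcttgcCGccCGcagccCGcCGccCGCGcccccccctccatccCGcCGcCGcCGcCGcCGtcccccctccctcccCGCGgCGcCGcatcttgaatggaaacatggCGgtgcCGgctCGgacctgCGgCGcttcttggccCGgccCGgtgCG
The windows are chr8:54322133-54322432 (plus strand) for Scn2b, chr8:54343623-54343922 (plus) for Scn4b, chr10:93336618-93336917 (minus) for Cacng5 and chr8:116950856-116951155 (plus) for Cacna2d2, all in GRCr8. They hold 2, 24, 2 and 44 CpG dinucleotides, against a median of 7 over all 33469 RefSeq windows. The letters GGGCGG (a GC box), searched on both strands, occur in 16 of the 30 windows of the members and in 33.1% of all windows. The letters TATAAA occur in 2 of 30 against 14.2%, and TGACGTCA (the full cAMP response element) in 0 of 30 against 1.83%. Such matches describe letters only, and no measurement of binding was made.

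The count of members that differed between types was read against all genes in the same edgeR fit. Between D2-MSN and D1-MSN nuclei 5 of 32 members passed, 3 higher and 2 lower, where 6.75% of the 12780 genes passed (2.72% higher, 4.03% lower). In Grm8 MSN nuclei 23 of 32 differed from D1-MSN and D2-MSN nuclei, 9 higher and 14 lower, against 33.4% of genes (15.4% higher, 18.0% lower). In Pvalb/Pthlh interneurons 27 of 32 differed, 8 higher and 19 lower, against 45.1% of genes (21.4% higher, 23.7% lower). In Sst interneurons 24 of 32 differed, 7 higher and 17 lower, against 43.5% of genes (19.8% higher, 23.7% lower). In glutamatergic nuclei 25 of 32 differed, 8 higher and 17 lower, against 46.5% of genes (22.6% higher, 23.9% lower). The median log2 fold change of members was -0.20, -0.61, -0.44 and -0.34 in these 4 contrasts, beside -0.02, -0.06, -0.06 and -0.03 over all genes. Scaling bears on these splits. With plain library sizes the median of all genes moved up by 0.13 in Grm8 MSN, 0.25 in Pvalb/Pthlh, 0.32 in Sst and 0.14 in glutamatergic nuclei, and the split became 10 higher and 15 lower in Pvalb/Pthlh and 11 higher and 13 lower in Sst interneurons.

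Members also differed between glial types, although among the tested types only Cacng4 was highest in a glial type without overlap with the next. Cacng4 was far higher in oligodendrocyte precursors than in any other type, with 351, 329, 410 and 405 CPM, while oligodendrocytes, their mature descendants, held 1.44, 0.853, 2.64 and 2.53 CPM. The log2 fold change was 7.52 ± 0.19 (adjusted p = 1.37e-34, edgeR). The next type, Grm8 MSN nuclei, held 74.2 ± 6.11 CPM. Scn3a (168 ± 25 against 3.44 ± 1.15 CPM), Cacna1e (376 ± 41.9 against 7.66 ± 3.11 CPM), Scn8a (303 ± 23.4 against 8.11 ± 1.04 CPM) and Scn1a (203 against 6.06 CPM) were likewise higher in precursors, with log2 fold changes of 5.57, 5.50, 5.11 and 4.96 and edgeR adjusted p from 3.41e-25 to 5.38e-35. In all, 23 of 32 members were higher and 0 lower in precursors, where 58.7% of genes differed, 29.7% higher and 29.0% lower. At an unadjusted p under 0.05, 24 members passed, beside 7907 of 12780 genes. The general neuron list stood at 2943 to 3562 CPM in precursors and at 2113 to 2456 CPM in oligodendrocytes, and its part in the result was not tested.

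Astrocytes differed from oligodendrocytes in 19 of 32 members, 13 higher and 6 lower, against 65.0% of genes (33.0% higher, 31.9% lower). Cacna2d3 stood at 1473 ± 156 CPM in astrocytes and 32.5 ± 9.36 CPM in oligodendrocytes, a log2 fold change of 5.35 ± 0.24 (adjusted p = 1.35e-25, edgeR), and it made up 98.5% ± 0.35 of Cacna2d UMIs in astrocytes. Scn8a took 72.0% ± 3.14 of the alpha sodium channel UMIs there, at 122, 140, 115 and 104 CPM. Its log2 fold change over oligodendrocytes was 3.71 ± 0.14 (adjusted p = 3.21e-28, edgeR). Cacng4 (4.88), Cacng8 (3.86) and Cacnb2 (3.73) were also higher in astrocytes, by the log2 fold changes given. Cacna2d1 was lower, at 18.3 ± 3.15 CPM against 101 ± 15.3 CPM, a log2 fold change of -2.61 ± 0.28 (adjusted p = 1.27e-11, edgeR). With doublets left in it was -0.58. Cacna1c (-1.18) and Scn2a (-0.60) were lower too, but both signs turned when doublets were left in, to 1.41 and 0.61, and with clusters in place of the gate Cacna1c differed by 0.0034. Without doublet removal 25 members were higher and 2 lower. The summed general neuron list was at 226 to 299 CPM in astrocytes and 2113 to 2456 CPM in oligodendrocytes, and its part in the result was not tested. Microglia, at a median of 1345 UMIs per nucleus, held 11 members at 20 CPM or more, with wide spread. Cacna2d1 there ran from 10.7 to 212 CPM, highest in the saline male library, which also had the highest general neuron sum (1275 CPM, against 217 to 742 CPM).

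The effect of cocaine on the members was tested within each type, over 2 saline and 2 cocaine libraries with sex as a covariate. In D1-MSN nuclei 0 of 32 members passed the edgeR threshold, where 0.211% of 12784 genes passed, and in D2-MSN nuclei 0 of 32, where 0.672% of 12492 passed. At an unadjusted p under 0.05, 1 member passed in D1-MSN and 6 in D2-MSN nuclei, beside 1109 of 12784 and 1169 of 12492 genes. DESeq2 called 0 members in either. The intervals were narrow for most members. The 95% interval lay within 0.5 of 0 on the log2 scale for 26 members in D1-MSN and 28 in D2-MSN nuclei, and within 1 for all 32 in both. Median log2 fold changes of members were -0.08 in each, beside 0.0017 and -0.00042 over all genes, with 21 of 32 below 0 in D1-MSN and 28 of 32 in D2-MSN nuclei. The saline and cocaine libraries did not overlap for 13 of 32 members in each type, beside 34.4% and 33.7% of all genes. The saline female library, whose nuclei were deepest, is 1 of the 2 saline libraries, and the part of depth was not tested.

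**Figure D4:**
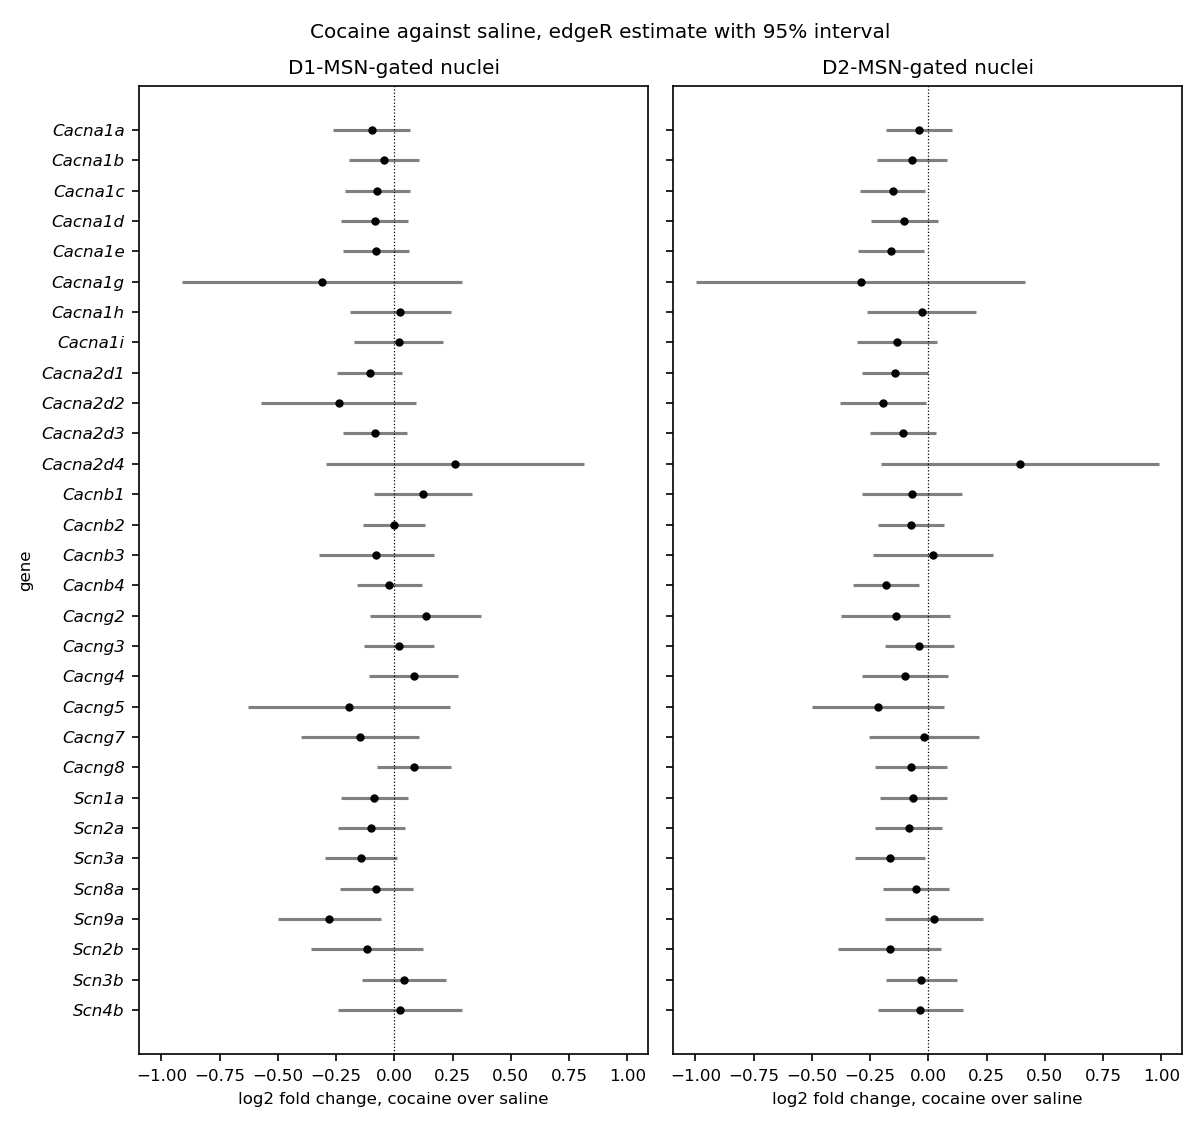
edgeR log2 fold change of cocaine over saline (x axis) for 30 of the 32 tested genes (y axis, by family) in D1-MSN and D2-MSN nuclei, points with 95% intervals over 2 saline and 2 cocaine libraries. The estimates lie between -0.31 and 0.39, and the widest intervals belong to rare genes such as Cacna1g and Cacna2d4.

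The member with the smallest unadjusted p in D1-MSN nuclei was Scn9a, at 74.9 and 59.6 CPM in the saline and 55.9 and 56.0 CPM in the cocaine libraries, with a log2 fold change of -0.28 ± 0.10 (SE, edgeR adjusted p = 0.473). The saline female library was apart from the other 3, and the value was -0.11 without it and -0.45 without the saline male library. Scn3a, Cacna2d1, Cacna2d2 and Scn2a followed, with values of -0.14, -0.11, -0.24 and -0.10 and edgeR adjusted p from 0.602 to 0.693. Without the saline female library the value of Cacna2d2 became 0.022. In D2-MSN nuclei the first was Cacnb4, at 865 and 918 CPM with saline and 784 and 834 CPM with cocaine, a log2 fold change of -0.18 ± 0.07 (adjusted p = 0.317, edgeR). Cacna1e (1062 and 1036 against 949 and 982 CPM) had -0.16, Cacna1c (1102 and 1111 against 1001 and 1047 CPM) -0.15, Scn3a (215 and 215 against 196 and 199 CPM) -0.16, and Cacna2d2 -0.19, with edgeR adjusted p from 0.405 to 0.497. In each of these 5 the cocaine libraries lay below the saline ones, although the male pools of Cacna2d2 both stood at 73.7 CPM, and none passed the threshold. The cocaine effect did not differ between D2-MSN and D1-MSN nuclei past the threshold for any of 32 members, where 0.116% of 12966 genes passed the edgeR interaction test. At an unadjusted p under 0.05, 3 members passed it, beside 883 of 12966 genes, and DESeq2 called 0 members.

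In the other neurons, edgeR called 0 members in Grm8 MSN nuclei (of 32, beside 0.00863% of genes), 0 in Pvalb/Pthlh interneurons (of 26, 0.204%), 0 in Sst interneurons (of 29, 0.0511%) and 0 in other GABAergic nuclei (of 29, 0.0708%). Unadjusted, 3, 3, 1 and 1 members passed in these types at p under 0.05, and DESeq2 called 0. Over all genes, 834 of 11585, 431 of 7369, 512 of 7828 and 379 of 8479 passed unadjusted, in the same order. In glutamatergic nuclei 1 of 29 members passed, beside 0.525% of genes. This was Cacna2d2, which held 58.2 CPM in saline females and 47.8 CPM in saline males (49 and 29 UMIs), and 24.4 and 15.4 CPM in the cocaine libraries (66 and 17 UMIs). It fell by 1.42 ± 0.29 (SE) on the log2 scale (adjusted p = 0.0469, edgeR), lower in both sexes. Numbers of glutamatergic nuclei were uneven, with 68 and 57 in the saline and 253 and 124 in the cocaine libraries. The other GABAergic marker list moved the same way in these nuclei, from 984 and 940 CPM to 531 and 464 CPM, with 2 of 7 markers higher with cocaine and none at 0. Its part in the result was not tested. With clusters in place of the gate the value was -0.37 (adjusted p = 1.00), and the call was kept in 2 of 11 alternatives.

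In glia, 1 member passed in astrocytes (of 18, beside 0.957% of genes), 1 in oligodendrocytes (of 21, 0.843%), 0 in oligodendrocyte precursors (of 19, 0.0345%) and 0 in microglia (of 10, 0.0%), and DESeq2 called 0 in each. At an unadjusted p under 0.05, 2, 4, 2 and 1 members passed in these types. Over all genes, 830 of 10239, 1104 of 10671, 551 of 8693 and 224 of 5800 passed unadjusted, in the same order. In oligodendrocytes 15 of 21 estimates lay above 0, with a median log2 fold change of 0.31 beside 0.0036 over all genes. The saline and cocaine libraries did not overlap there for 12 of 21 members, beside 33.1% of genes with at least 40 UMIs. Cacnb2 rose in oligodendrocytes, from 16.1 and 10.2 CPM (67 and 24 UMIs) with saline to 34.9 and 28.3 CPM (119 and 67 UMIs) with cocaine. The groups did not overlap, and the log2 fold change was 1.18 ± 0.20 (SE, edgeR adjusted p = 0.000273). For scale, Cacnb2 stood at 330 ± 74.6 CPM in astrocytes and 2671 CPM in D2-MSN nuclei. The D1-MSN marker list was also higher in oligodendrocytes with cocaine (17.1 and 26.9 against 33.8 and 40.9 CPM, 6 of 6 markers higher, none at 0), and the D2-MSN list was at 33.5 and 47.3 against 43.2 and 86.4 CPM (5 of 6 higher, Sp9 at 0). The general MSN list was at 848 and 812 against 843 and 842 CPM, with 7 of 9 markers higher, and the general neuron list at 2456 and 2198 against 2367 and 2113 CPM, with 4 of 5 higher. Their part in the result was not tested. The call was kept in 6 of 11 alternatives and lost without the saline male or either cocaine library, at 0.91 to 1.31, without the sex covariate (1.16) and with DESeq2 (1.22).

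Cacna1d, an L-type pore gene that opens at lower voltages than Cacna1c channels, fell in astrocytes from 145 and 97.1 CPM with saline to 98.1 and 66.3 CPM with cocaine. The log2 fold change was -0.58 ± 0.15 (SE, edgeR adjusted p = 0.0222), and the drop was seen in both sexes, while the saline male and cocaine female libraries were nearly equal. Median UMIs per astrocyte nucleus were 3469 (female) and 2900 (male) with saline and 3230 and 2639.5 with cocaine. The libraries fall in the same order by depth as by Cacna1d, and the part of depth was not tested. The general MSN list ran at 1327 and 1201 CPM with saline and 1637 and 1565 CPM with cocaine in these nuclei (7 of 9 markers higher, none at 0), and its part was not tested. The call was kept in 3 of 11 alternatives, and the value was -0.27 without the saline female, -0.91 without the cocaine female and -0.34 without the cocaine male library, and -0.34 with doublets left in.

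**Figure D5:**
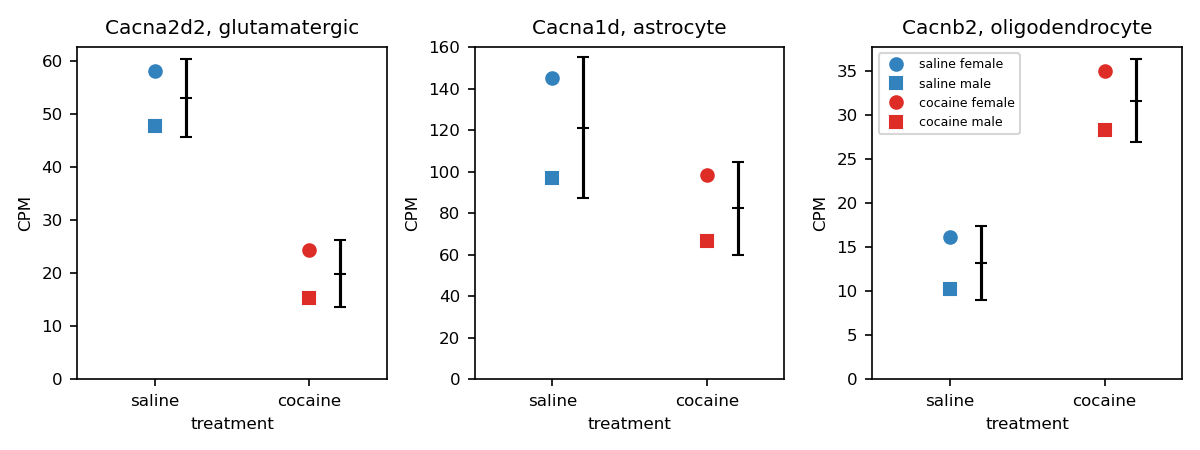
CPM (y axis, from 0) in each saline and cocaine library (circles female, squares male) for the 3 gene and type pairs called by edgeR, with the mean and SD of 2 libraries beside the points. Cacna2d2 and Cacnb2 do not overlap between treatments. The same holds for 36.1% of all genes with at least 40 UMIs in glutamatergic and 33.1% in oligodendrocyte nuclei. For Cacna1d the saline male library (97.1 CPM) sits just below the cocaine female library (98.1 CPM).

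A list of 30 genes whose products bind or sit beside these channels (Fgf11 to Fgf14 homologous factors, ankyrins, the NALCN complex, ryanodine receptors, calmodulin kinases and others) was examined in the same fits. In D1-MSN and D2-MSN nuclei 0 of 25 tested passed with cocaine, by edgeR, beside 0.211% and 0.672% of all genes. In astrocytes 2 of 22 passed, both lower, beside 0.957% of all genes. Fgf12, a cytoplasmic factor that binds the sodium channel tail, fell from 708 and 746 CPM to 477 and 546 CPM, a log2 fold change of -0.53 ± 0.12 (adjusted p = 0.00117, edgeR). Fgf14, of the same family, fell from 192 and 226 CPM to 165 and 98.1 CPM, a log2 fold change of -0.69 ± 0.14 (adjusted p = 0.000283, edgeR). In oligodendrocytes 1 of 22 passed, beside 0.843% of all genes. This was Fgf14, which rose from 58.5 and 44.8 CPM to 101 and 70.4 CPM, with a log2 fold change of 0.68 ± 0.13 (adjusted p = 0.00192, edgeR). Fgf12 kept its call in 5 of 11 alternatives and Fgf14 in 4 of 11 in each type, and with doublets left in the astrocyte value of Fgf14 was -0.067 and the oligodendrocyte value 1.06. Without the cocaine female library these were -1.12 and 0.36, and without the cocaine male library the astrocyte value was -0.36.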

How the data were processed

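UMI counts per gene and nucleus were deposited by the authors as whole numbers. Per the file headers they were made with Cell Ranger 6.1.2, and the submitters' processing notes name the build rn7. Whether intronic reads were counted is not given in the sources used here. The labels give no replicate numbers.

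Barcodes under 200 genes or over 5% mitochondrial UMIs were dropped, and the highest Scrublet scores (scanpy 1.11.5) were removed at 0.8% per 1000 barcodes. Marker scores first parted neurons, glial types and vascular cells, with a lead of 0.3 over the next. Neurons went to a Pvalb/Pthlh, Sst, cholinergic, glutamatergic or Grm8 MSN type at a score of at least 1.0 and the same lead. Below that score, neurons with a general MSN score of at least 0 were split into D1-MSN and D2-MSN by that lead. Other GABAergic nuclei were a remainder with a general MSN score under -0.2, at least 2 markers and a positive score of their list, and no lead. The limits of these scores were chosen from marker genes alone, once the data had been seen. Leiden clusters built without channel genes were an alternative. Counts were summed per library and type with at least 25 nuclei in each library, and 18.4% of nuclei stayed ungated.

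edgeR 4.0.16 (quasi-likelihood, TMM, filterByExpr, Benjamini-Hochberg at 0.05 over all genes) was run with sex as covariate within a type, which leaves 1 residual degree of freedom moderated across genes. Types were compared in one fit of all 11 types tested, with library as block, so the spread of a gene was shared over these types. Prior degrees of freedom were infinite in D2-MSN nuclei and astrocytes, so p-values there rest on a spread shared by all genes. DESeq2 1.42.0 was an alternative. The SE and intervals given with edgeR values were worked back from the log2 fold change and its test, and were not estimated separately. For genes with few UMIs they can be narrower than counting noise allows. The fits were tested on simulated counts. Members and lists were chosen with earlier results of these data known. Named genes were each member or partner called with cocaine, the 5 smallest unadjusted p in D1-MSN and D2-MSN nuclei, and up to 5 higher and 5 lower members per type contrast with 1 sign in 4 libraries and 20 CPM. Others are given as levels or shares, and promoters and neighbours were chosen after values were seen. Near-identical paralogs and overlapping genes can share reads. Results for 2 members are not reported here, and they stay in the counts over members.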

Additional observations from a re-analysis of the deposited data

Results flagged for a closer look

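Fgf14, which binds sodium channels, was called lower with cocaine in astrocytes (log2 fold change -0.69) and higher in oligodendrocytes (0.68). Every library pair moved down in one type and up in the other, by -0.22 in females and -1.20 in males in astrocytes and by 0.79 and 0.65 in oligodendrocytes. The difference between the 2 types was not tested.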

How the results depend on the processing

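Of 58 named differences between types, 52 kept their direction and call under all 11 alternatives. Those that did not include Cacna1b, Cacna1h and Cacna1i in D2-MSN against D1-MSN nuclei, and Cacna1c and Scn2a in astrocytes against oligodendrocytes. Without doublet removal Cacna1c turned to 1.41 and Scn2a to 0.61, and with clusters in place of the gate Cacna1c was 0.0034. Members called between D2-MSN and D1-MSN nuclei numbered 3 to 5 on leaving out 1 library, with 3 without the saline male library. The cocaine value of Cacna2d2 in D1-MSN nuclei turned to 0.022 without the saline female library, and was -0.48 without the saline male library.

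Calls with cocaine were less stable. In glutamatergic nuclei the 1 call became 0 with DESeq2 size factors, the DESeq2 test, clusters, the stricter gate, no doublet removal or no sex covariate, and 0 to 1 on leaving out 1 library (0 without the saline female or either cocaine library). In astrocytes the 1 call became 0 with the DESeq2 test, no filter on low counts, the stricter gate, no doublet removal or no sex covariate, and 0 to 1 on leaving out 1 library (1 only without the cocaine female library). In oligodendrocytes the 1 call became 0 with the DESeq2 test or no sex covariate, 5 without doublet removal, and 0 to 1 on leaving out 1 library (1 only without the saline female library). On leaving out 1 library, 0 to 2 members were called in Grm8 MSN nuclei (2 without the saline male and 1 without the cocaine female library) and 0 to 1 in microglia (1 without the saline male library). The cause was not tested. With 3 libraries the sex covariate was dropped too, and a group of 1 library is assumed to vary like the other. Shares per kilobase of gene were not run. Pools were matched by sex through the covariate. No paired analysis by replicate number was possible because the labels give none. Microglia, at 202375 to 372830 UMIs per library, had 95% intervals within 1 of 0 on the log2 scale for 0 of 10 members.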
